A study of Homo sapiens with 27 samples.

Results

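Control libraries of 2 lymphoma lines were compared before any loss of SIRT3: 3 of HBL1 and 3 of Karpas422, 6 of the 27 libraries in the series. Of 27115 genes listed in each file, 12205 were tested, namely those with a value of at least 1 in at least 3 of these 6 libraries. HBL1 represents the activated B-cell type of diffuse large B-cell lymphoma. Karpas422 is examined here as a germinal-centre type line, and the study places it in a class named for oxidative phosphorylation (OXPHOS). Each type is 1 line, so line and type cannot be told apart. Both lines were grown in the same medium with serum and were infected with a lentivirus that carries a scrambled hairpin, YFP and puromycin resistance. RNA was taken on day 8 after infection, so the controls are infected and selected cells rather than untouched ones. Nothing in the labels says whether the replicates were separate cultures, so the p-values measure the spread between these libraries, which may be technical. For reference, 12 libraries of the same lines with either SIRT3 hairpin are used below, and 3 control libraries of OCI-Ly1, a germinal-centre type line, are given for some genes.

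The germinal centre is the site where B cells mutate and test their antibody genes, under the repressor BCL6. Cells that leave it switch on IRF4 and PRDM1 on the way to becoming plasma cells. Lymphomas of the activated type are known for chronic B-cell receptor and NF-kappaB signalling and for an arrest between these states, and lymphomas of the germinal-centre type keep the programme of the centre itself.

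The values are read counts scaled to each library's depth (CPM) and are not divided by gene length, so levels are compared between libraries and never between genes. Between 28694398 and 48814139 reads fell on genes in each of the 6 libraries. The counts of HBL1 replicates 1 and 2 differed by a chi-square of 6.74 per gene, against 51.05 to 91.65 for the other replicate pairs of a line. That is above sampling noise, and both were kept as replicates. HBL1 replicate 3 stood apart from them, with a summed level of 22 proliferation genes of 1903 CPM against 3472 and 3203 CPM. Karpas422 replicate 1 stood apart in interferon-stimulated genes, as given with those genes. Both lines carried B-cell transcripts: MS4A1 (CD20), CD79A and CD79B did not pass the test, and PAX5 differed by 0.41 on the log2 scale, under the size for a call. Differences are given as HBL1 minus Karpas422 of the mean log2(CPM + 0.1), with the standard error (SE). A gene was called at a fold above 1.5 and an adjusted p under 0.05 (limma, Benjamini-Hochberg over the 12205 genes).

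SIRT3, the mitochondrial deacetylase that the study depletes, was slightly higher in HBL1. It read 13.5, 14.2 and 16.4 CPM in HBL1 and 9.99, 9.14 and 10.2 CPM in Karpas422, or 14.7 ± 1.48 against 9.78 ± 0.564 CPM (SD, n = 3). The libraries of the lines did not overlap. The difference was 0.58 (SE 0.12; limma, adjusted p = 0.0029), a fold of 1.49 that lies just under the size for a call. It passed that size with DESeq2 (0.68) and edgeR (0.66), without HBL1 replicate 1 (0.63) or 2 (0.60), and without Karpas422 replicate 1 (0.59) or 3 (0.61). SIRT3 was 10.7, 13.8 and 9.98 CPM in the OCI-Ly1 controls. Among the other sirtuins, SIRT4, also mitochondrial, was higher in HBL1 (1.69), and SIRT1 and SIRT5 were lower (-1.01 and -1.13). The SIRT4 levels were low, 1.09 to 1.27 CPM in HBL1 and 0.251 to 0.415 CPM in Karpas422, and the sign turned under quantile normalization (-0.11).

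The lines differed in most of the transcriptome. Of the genes tested, 6743 (55.2%) were called, 3178 (26%) higher in HBL1 and 3565 (29.2%) lower. Which direction held more calls depended on the method. Higher calls were the more numerous with DESeq2 (3525 against 3212 lower), edgeR (3429 against 3280) and median-ratio scaling (3483 against 3181). The libraries of the lines did not overlap for 9260 genes (75.9%), which is the background for every statement below that groups are apart. Past 4-fold, 1510 genes (12.4%) were higher in HBL1 and 790 (6.47%) lower. These shares of called genes, at either fold, are the background for every count of called genes in a list below. Higher genes thus made up 65.7% of the 4-fold calls, but 54.3% of them under quantile normalization (1294 higher and 1091 lower). The median difference over all genes tested was -0.08, and 0.02 under median-ratio scaling.

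The same line contrast was fitted in the knockdown libraries, which are other libraries of the same lines, taken on the same day after infection. Between the lines with the hairpin shSIRT3-1, 6419 genes (52.6%) were called, and with shSIRT3-2, 6932 (56.8%). Of the 2300 genes past 4-fold in the controls, 2236 (97.2%) had a call of the same sign under shSIRT3-1, 2264 (98.4%) under shSIRT3-2 and 2208 (96%) under both. The opposite call was made for 0 and 2 of them. Across genes the log2 differences correlated with those of the controls at r = 0.95 and r = 0.96, a description over genes, which are not independent replicates. The large differences between the lines were therefore present in knockdown cells too.

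The 15 genes of the cell-of-origin panel, which pathologists use to sort these lymphomas, all divided the lines. The 8 genes of the activated side were higher in HBL1 past 4-fold, with a median difference of 9.61. The 7 genes of the germinal-centre side were lower past 4-fold, with a median of -6.00. The 5 reference genes of the panel gave no call. These panel genes were picked for telling the types apart, so their direction was fixed by earlier knowledge of the types.

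IRF4 (chr6:391739-411443 in GRCh37, plus strand), the factor that drives B cells toward plasma cells, read 405, 388 and 343 CPM in HBL1. In Karpas422 it read 0.0375, 0.0202 and 0.00928 CPM, a difference of 11.60 (SE 0.14; limma, adjusted p = 3e-09). IRF4 was thus near 0 in every Karpas422 library. CCDC50, a signalling adaptor, was at 321, 323 and 243 CPM in HBL1 and at 0, 0.0101 and 0.0186 CPM in Karpas422 (11.39). CREB3L2, an endoplasmic reticulum stress factor, was at 151, 171 and 221 CPM against 0.0281, 0.0709 and 0.0371 CPM (10.28). TNFRSF13B, which encodes the receptor TACI for the survival factors BAFF and APRIL, was at 156, 144 and 134 CPM against 0.00938, 0.0304 and 0.00928 CPM (10.28). These 3 genes and CYB5R2 (8.95), a reductase, were near 0 in Karpas422 as well. PIM2, a survival kinase, was present in both lines, at 573, 578 and 592 CPM in HBL1 and 18.2, 21.4 and 18.5 CPM in Karpas422 (4.90). LIMD1 (3.80) and RAB29 (3.12), a scaffold and a small GTPase, were also expressed in both and were higher in HBL1.

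MME (chr3:154741913-154901493 in GRCh37, plus strand) encodes CD10, the surface peptidase that marks germinal-centre cells. It was at 0.0203, 0.0472 and 0.109 CPM in HBL1 and at 114, 110 and 134 CPM in Karpas422 (-9.59). SERPINA9 (centerin), a protease inhibitor of germinal-centre B cells, was at 0.274, 0.409 and 0.755 CPM against 149, 95 and 283 CPM (-8.19). Both were nearly silent in HBL1, although SERPINA9 spread widely among the Karpas422 libraries. MYBL1, a MYB family factor, was at 0.853, 0.959 and 0.996 CPM against 130, 128 and 134 CPM (-6.98). S1PR2, the receptor that holds B cells in the germinal centre, was at 2.74, 2.66 and 2.51 CPM against 95.4, 87.2 and 65.3 CPM (-4.90). ITPKB, an inositol kinase, was at 16.4, 16.5 and 25.4 CPM against 288, 256 and 281 CPM (-3.84). ITPKB was thus lower but not off in HBL1, and MAML3 (-6.00), a Notch coactivator, and ASB13 (-5.78) completed the side.

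**Figure D1:**
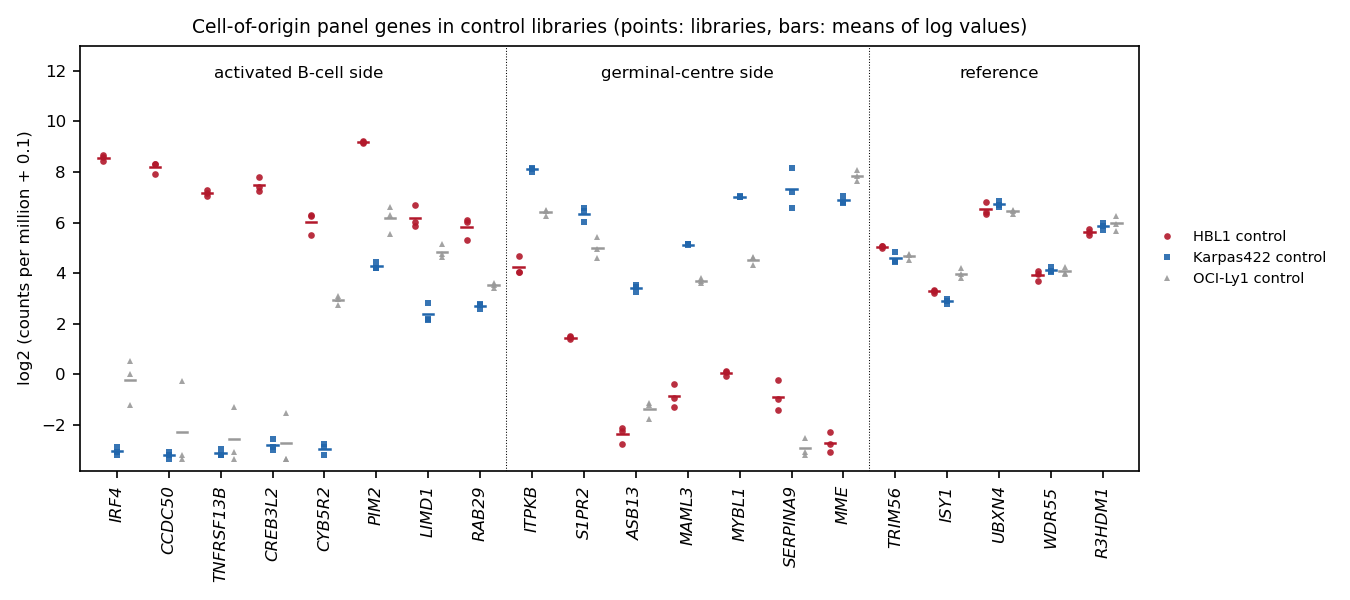
Levels of the cell-of-origin panel genes, as log2(CPM + 0.1) on the vertical axis, in each control library of HBL1 (red circles), Karpas422 (blue squares) and OCI-Ly1 (grey triangles), with a bar at the mean of each line's log values. The 8 activated-side genes lie higher in HBL1 than in Karpas422, the 7 germinal-centre genes lie lower, and the 5 reference genes lie close together.

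Genes outside the panel followed the same division with exceptions. Of 24 other tested genes assigned to the activated type, 23 were called higher in HBL1, 17 of them past 4-fold, with a median of 3.36. CCND2, a G1 cyclin, was at 714, 664 and 816 CPM in HBL1 and 0.816, 0.607 and 1.2 CPM in Karpas422 (9.59). PIM1, a kinase related to PIM2, was at 1209, 1210 and 1240 CPM against 3.17, 4.23 and 2.9 CPM (8.45). BATF, an AP-1 factor that partners IRF4, was at 90.5, 74.8 and 38.3 CPM against 0.0188, 0.0304 and 0.0186 CPM (9.03). None of these 3 genes overlapped between the lines. PRKCB, the kinase that links the B-cell receptor to NF-kappaB, differed by 5.19.

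Of 25 other tested genes assigned to the germinal-centre type, 19 were called lower in HBL1 and 5 higher, with a median of -2.18. SSBP2, a DNA-binding protein, was at 0.122, 0.11 and 0.252 CPM in HBL1 and 57.8, 57.8 and 55.4 CPM in Karpas422 (-7.81). VPREB3 (-7.21), a chaperone of the B-cell receptor, GCSAM (-5.98), a germinal-centre signalling adaptor, and KANK1 (-4.91) were also lower past 4-fold. BCL6, the master repressor of the germinal centre, was lower but still abundant in HBL1, at 180, 175 and 153 CPM against 758, 682 and 793 CPM (-2.14; SE 0.11). The genes that went the other way included S1PR1 (5.57), CD38 (3.69) and BACH2 (2.43), described with their pathways. HBL1 thus lacked several germinal-centre transcripts and kept BCL6 in part.

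Genes of the plasma cell route were raised in part. Of 17 tested plasma cell genes, 10 were called higher in HBL1, 7 of them past 4-fold, and 3 lower, 2 of them past 4-fold. The lower genes were SDC1, JCHAIN and CD27, so members of the list went both ways. PRDM1 (BLIMP1), the repressor that completes plasma cell differentiation, was low in HBL1, at 7.09, 6.65 and 3.43 CPM, and lower in Karpas422, at 0.216, 0.152 and 0.427 CPM, a call past 4-fold. The difference was 3.41 with shSIRT3-1 and -0.67 with shSIRT3-2, where it went the other way. CD38, an ectoenzyme of germinal-centre and plasma cells, was at 24.6, 27.3 and 30.6 CPM against 1.73, 1.16 and 4.09 CPM (3.69), and the difference was 0.24 with shSIRT3-2. XBP1, the secretory factor, was modestly higher (0.67). Among 30 transcription factors of these stages, 13 were called higher in HBL1 and 9 lower. SPI1 (PU.1) was lower, at 6.05, 6.79 and 6.37 CPM against 82.2, 90.1 and 74.2 CPM (-3.66). BACH2, which holds B cells back from the plasma cell fate, was higher in HBL1 (2.43), next to IRF4. BCL6 and BACH2 were thus both still transcribed in a line with high IRF4.

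B-cell identity genes differed about as often as other genes. Of 22 tested, 10 gave no call, 5 were higher in HBL1 and 7 lower, where 55.2% of all genes were called, and the median of -0.08 was that of all genes. CD22, an inhibitory receptor, was at 38.4, 54 and 63.9 CPM in HBL1 and 441, 527 and 200 CPM in Karpas422 (-2.82). Of 30 receptor signalling components, 9 were higher, 7 lower and 14 gave no call (median -0.05). Among T and NK cell markers, Karpas422 expressed CD3G, a chain of the T-cell receptor complex, at 36.3, 35.8 and 41.4 CPM, and CD3D at 1.59, 1.44 and 1.45 CPM. CD3E was under 0.5 CPM in each library of both lines, and of 15 such markers measured 5 passed the filter. Of these 5, NKG7 (-2.71) was lower in HBL1 along with CD3G and CD3D, CD8A (3.03) was higher, at 1.83, 2.31 and 2.08 CPM against 0.15, 0.152 and 0.195 CPM, and CD247 was not called. Of 14 myeloid markers 1 passed, and it was lower in HBL1. In RNA from bulk cells, fewer cells with a transcript and less of it in each cell cannot be told apart.

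NF-kappaB factors wait in the cytoplasm bound to inhibitors of the IkappaB family until kinases release them, and they then induce many of the same inhibitors along with cytokines and surface receptors. A canonical branch uses RELA, REL and NFKB1, and a second branch uses RELB and NFKB2 under the control of TRAF3. Short promoter stretches are printed here because they carry the kappaB letters beside genes with large differences. Each is a stretch of 100 bases on the strand of the gene, 5′ to 3′, from within the 250 bases before its first listed start in RefSeq (GRCh38.p14). The match begins 66 bases before the start in TNFAIP3, 223 in NFKBIZ, 49 in NFKB1 and 85 in LTB. Capitals mark GGGANTTTC or its reverse complement.

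TNFAIP3 (chr6:137867148-137867247, plus strand, 7.39): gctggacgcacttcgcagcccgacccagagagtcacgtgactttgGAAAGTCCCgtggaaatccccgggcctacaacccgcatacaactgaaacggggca
NFKBIZ (chr3:101827740-101827839, plus strand, 6.14): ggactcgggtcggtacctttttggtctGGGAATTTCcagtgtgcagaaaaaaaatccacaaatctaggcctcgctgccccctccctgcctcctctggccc
NFKB1 (chr4:102501259-102501358, plus strand, 2.30): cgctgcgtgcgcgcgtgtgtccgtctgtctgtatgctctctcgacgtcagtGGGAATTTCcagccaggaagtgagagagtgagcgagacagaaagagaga
LTB (chr6:31582456-31582555, minus strand, -2.21): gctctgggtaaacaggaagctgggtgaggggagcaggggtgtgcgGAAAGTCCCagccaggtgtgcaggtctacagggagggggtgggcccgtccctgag

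The letters were in 110 of the 9655 tested genes with a promoter in the table (1.14%), on either strand between 250 bases before and 50 after the start. They were in 6 of 20 promoters of NF-kappaB subunits, inhibitors and kinases (30%), namely NFKB1, REL, NFKBIA, NFKBIZ, TNFAIP3 and IKBKG. Of these 6 genes, 5 were called higher in HBL1, and IKBKG was not (0.19). They were in 3 of 21 target promoters (14.3%), namely LTB, CD86 and PLEK, and LTB and PLEK were lower in HBL1. A match describes the letters and shows no binding, and the same letters stood before genes that were higher and genes that were lower.

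Most IkappaB-family genes, TNFAIP3 and the second-branch subunits were higher in HBL1. Of 23 pathway genes, 12 were called higher, 9 of them past 4-fold, and 3 lower, with a median of 1.24. TNFAIP3 (A20), the ubiquitin-editing brake on the pathway, lies at chr6:138188351-138204451 in GRCh37 (plus strand). It was at 136, 122 and 90.5 CPM in HBL1 and 0.441, 1.01 and 0.427 CPM in Karpas422 (7.39). NFKBIZ, a nuclear IkappaB protein, was at 111, 106 and 77.9 CPM against 1.47, 1.51 and 0.938 CPM (6.14). BCL3, another nuclear IkappaB protein, was at 15.1, 15.1 and 10.4 CPM against 0.131, 0.213 and 0.0371 CPM (5.97). In all 3 genes HBL1 replicate 3 was the lowest HBL1 library and still far above Karpas422. NFKBID (5.24) and NFKBIE (5.16), also of the IkappaB family, were higher too.

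Among the subunits, NFKB2 was at 130, 114 and 61.7 CPM in HBL1 and 3.39, 2.9 and 3.7 CPM in Karpas422 (4.83). RELB was at 55.1, 56.4 and 29.9 CPM against 2.61, 3.07 and 2.41 CPM (4.03), and NFKB1 at 83.2, 78.3 and 51.5 CPM against 13.6, 13.7 and 14.8 CPM (2.30). REL differed by 1.47. RELA, whose protein is controlled mainly by its location, differed by 0.51 and was not called. TRAF3, the adaptor that keeps the second branch off, was lower in HBL1, at 18.9, 18.8 and 18 CPM against 128, 131 and 126 CPM (-2.78). CHUK and BIRC2 were the other genes of this list called lower. As transcripts, NFKB2 and RELB differed more than NFKB1, REL and RELA did. Whether the activity of either branch differed between the lines was not tested.

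Of 25 tested target genes, 16 were called higher in HBL1, 12 of them past 4-fold, and 6 lower, with a median of 1.51. CCR7 (chr17:38710021-38721724 in GRCh37, minus strand), the receptor that guides lymphocytes into lymph nodes, was at 133, 115 and 87.1 CPM in HBL1 and 0.0188, 0.0607 and 0.0371 CPM in Karpas422 (9.64). The chemokine CCL22 was at 105, 88.7 and 30.7 CPM against 0, 0.0101 and 0 CPM (9.32). EBI3, a cytokine subunit, was at 63.9, 55.6 and 27.6 CPM against 0, 0.0202 and 0 CPM (8.76). These targets were off in Karpas422, and TNFAIP2 (7.77) likewise. Others went the opposite way. TNF was at 8.8, 6.08 and 6.33 CPM in HBL1 and 66.2, 69.3 and 16.2 CPM in Karpas422 (-2.57), with Karpas422 replicate 3 well below the other two. FAS, the death receptor, differed by -2.62 and PLEK by -2.26. LTB, a lymphotoxin subunit, was at 1.64, 2 and 2.6 CPM against 21, 14.9 and 3.01 CPM (-2.21; limma, adjusted p = 0.014), and without Karpas422 replicate 2 it no longer passed (-1.92; adjusted p = 0.062). The 5 targets lower past 4-fold were 3 without Karpas422 replicate 1 and 3 without replicate 2.

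**Figure D2:**
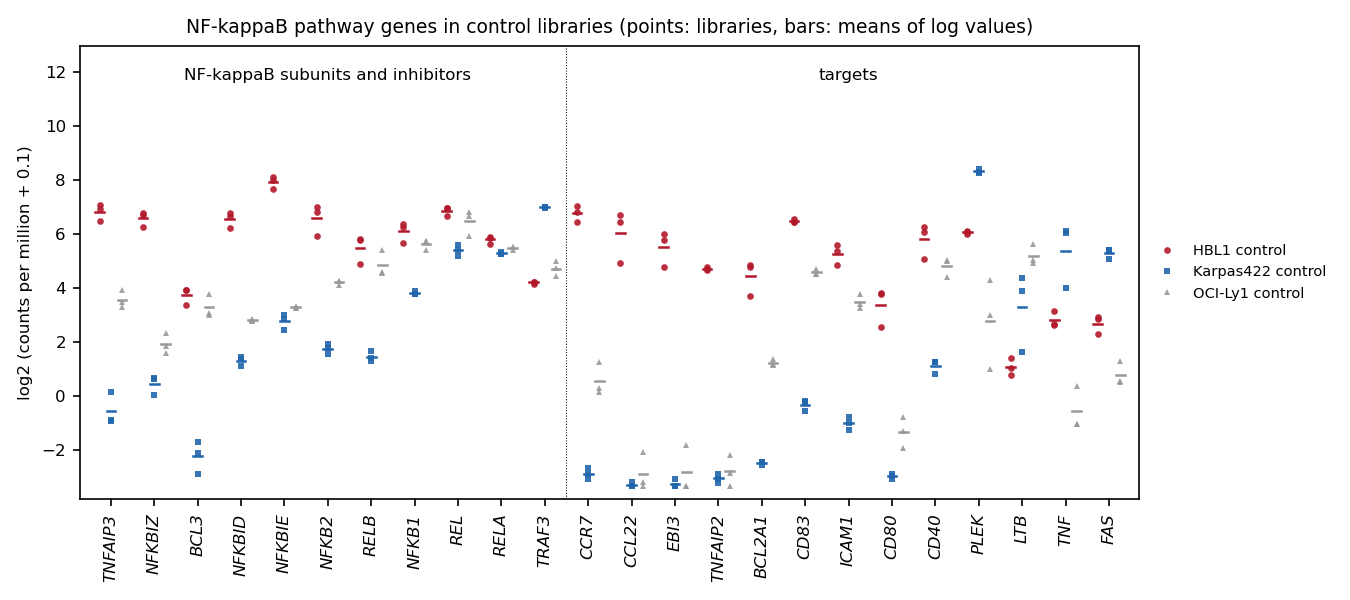
Levels of NF-kappaB pathway genes, as log2(CPM + 0.1), in each control library of HBL1 (red circles), Karpas422 (blue squares) and OCI-Ly1 (grey triangles), with a bar at the mean of each line's log values. The IkappaB-family genes, NFKB2 and RELB lie higher in HBL1, RELA lies close in the lines, and TRAF3, TNF, FAS, PLEK and LTB lie lower.

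Surface and cytokine pathways showed similar contrasts. All 20 tested costimulatory genes and surface receptors were called, 15 higher and 5 lower in HBL1, with a median of 3.13. Over all genes tested, 55.2% were called. CD40, the receptor for T-cell help, was at 78.3, 68.3 and 34 CPM against 2.35, 1.7 and 2.31 CPM (4.69). CD80, a costimulatory ligand, was at 14.3, 13.8 and 5.77 CPM against 0.0188, 0.0304 and 0.0371 CPM (6.36). CD274 (PD-L1), a checkpoint ligand, was at 21, 18.9 and 21.1 CPM against 0.825, 1.01 and 1.18 CPM (4.22). The lower genes included CD27 (-3.59), SLAMF6 (-3.30) and ITGB2 (-2.50). CD58, the ligand of CD2 on T cells, was at 0.0102, 0 and 0 CPM in HBL1 and at 1.06, 1.1 and 1.48 CPM in Karpas422 (-3.65).

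Many transcripts of cytokine signalling through JAK kinases and STAT factors were higher in HBL1. Of 20 tested components, 12 were called higher and 4 lower (median 1.58), where 26% of all genes were higher and 29.2% lower. IL6R, the interleukin-6 receptor, was at 104, 96.5 and 72.1 CPM in HBL1 and 0.0281, 0.0506 and 0.065 CPM in Karpas422 (9.26). STAT3, which that receptor activates, was at 206, 183 and 113 CPM against 41.1, 38.9 and 43.2 CPM (1.98), and JAK3 differed by 3.88. STAT5B was lower, at 56.4, 56.1 and 48 CPM against 272, 238 and 330 CPM (-2.38), and so was SOCS1 (-2.14), a feedback inhibitor. The 2 components lower past 4-fold were 1 without HBL1 replicate 3 and 1 without Karpas422 replicate 1. Among 18 chemokine, cytokine and homing genes, 9 were higher and 6 lower. CXCR5, the receptor that brings B cells into follicles, was at 219, 214 and 214 CPM in HBL1 and 0.225, 0.506 and 0.418 CPM in Karpas422 (8.85). The S1P receptors were divided by line, with S1PR1, the exit receptor, at 4.75, 5.85 and 6.06 CPM in HBL1 and near 0 in Karpas422 (5.57), opposite to S1PR2.

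Calls among interferon-stimulated genes depended on single libraries. Of 31 tested, 12 were called higher in HBL1, 4 lower and 15 not called, with a median of 1.07. The libraries of the lines did not overlap for 10 of the 31, against 75.9% of all genes. The summed level was 2667, 2567 and 1591 CPM in HBL1 and 2649, 1088 and 763.7 CPM in Karpas422, so Karpas422 replicate 1 read like HBL1 and the other two did not. Without Karpas422 replicate 1, 21 genes were called higher, 12 of them past 4-fold in place of 6. The higher calls were 6 without Karpas422 replicate 2, 5 without replicate 3, and 6 without HBL1 replicate 1 or without HBL1 replicate 2. Without HBL1 replicate 3 the lower calls were 2. With shSIRT3-1 the list's median difference was -0.49 and with shSIRT3-2 it was 0.27, so its direction was not kept in the knockdown libraries.

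Some members differed past that spread. IFIH1 (MDA5), a sensor of viral RNA, was at 43.2, 39.1 and 18.9 CPM in HBL1 and 3.67, 0.931 and 0.399 CPM in Karpas422 (4.67; SE 0.68). IFIT5, which binds viral RNA, was at 36.1, 33.8 and 21.7 CPM against 7.43, 1.85 and 1.36 CPM (3.43; SE 0.56). RSAD2 (viperin), an antiviral enzyme, went the other way, at 0.64, 0.723 and 0.131 CPM against 40.2, 7.36 and 5.46 CPM (-4.51; SE 0.78). The libraries of the lines did not overlap for these 3 genes. Their promoters are shown to set the interferon letters beside both directions. Capitals mark GAAANNGAA or its reverse complement, and where 2 matches overlap they run together as capitals.

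IFIH1 (chr2:162318794-162318893, minus strand): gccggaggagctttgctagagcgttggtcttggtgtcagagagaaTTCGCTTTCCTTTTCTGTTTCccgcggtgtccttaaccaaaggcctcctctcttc
IFIT5 (chr10:89414468-89414567, plus strand): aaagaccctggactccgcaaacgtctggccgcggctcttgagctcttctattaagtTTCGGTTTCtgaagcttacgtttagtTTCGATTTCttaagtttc
RSAD2 (chr2:6865761-6865860, plus strand): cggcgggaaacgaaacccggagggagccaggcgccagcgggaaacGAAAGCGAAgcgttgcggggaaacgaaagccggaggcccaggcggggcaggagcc

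These letters were in 641 of 9655 promoters of tested genes (6.64%), and in 17 of 25 interferon-stimulated promoters (68%). Only promoters that held the letters were printed, so their presence in IFIH1 and IFIT5, higher in HBL1, and RSAD2, lower, was fixed by that choice. Whether the letters go with the direction of a gene was not tested.

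**Figure D3:**
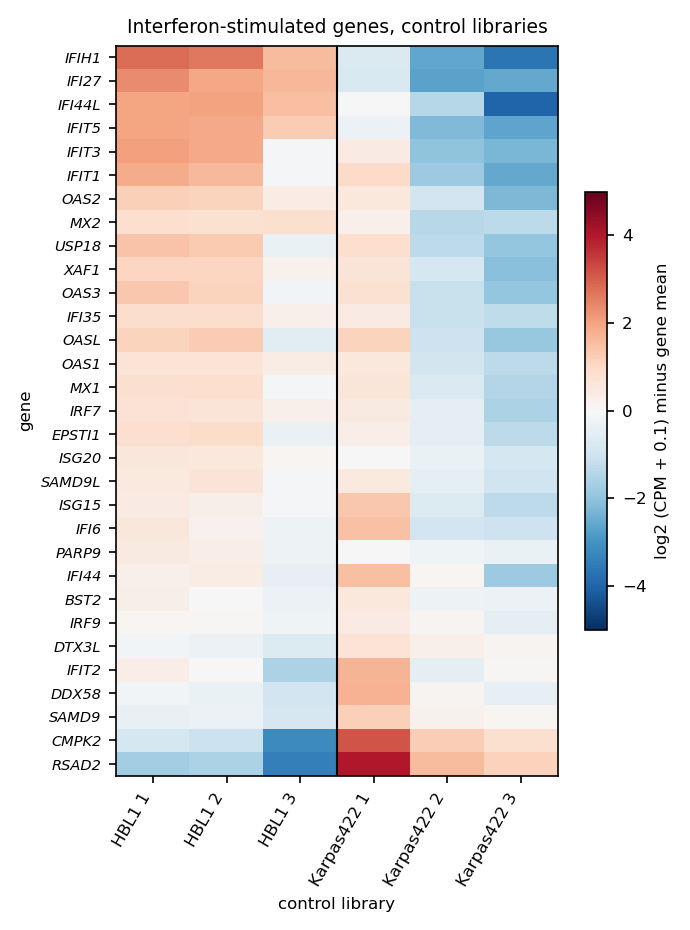
Heat map of the 31 tested interferon-stimulated genes (rows) in the 6 control libraries (columns), coloured by log2(CPM + 0.1) minus the gene's mean over the 6, on a scale that ends at 5 in each direction. Karpas422 replicate 1 resembles the HBL1 libraries for many genes, and the other 2 Karpas422 libraries are lower for most of them, with RSAD2 among the exceptions.

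Most transcripts of MHC class II presentation genes were lower in HBL1. Of 16 genes, 10 were called lower, 1 higher and 5 not called, with a median of -0.83. HLA-DRA, the shared chain of HLA-DR, was at 129, 132 and 192 CPM in HBL1 and 273, 284 and 287 CPM in Karpas422 (-0.92). HLA-DOB, a B-cell modulator of peptide loading, was at 1.56, 1.37 and 2.07 CPM against 50.6, 49.8 and 46.9 CPM (-4.82). CIITA, the master activator of these genes, was at 35.1, 40.3 and 55.1 CPM against 55.5, 54 and 41.7 CPM (-0.23) and was not called. Reads of HLA genes can be lost or shared where alleles differ from the reference or resemble each other, as with HLA-DRB5 (-3.82), so these values are uncertain. The 4 genes lower past 4-fold were 2 without HBL1 replicate 1 and 2 without HBL1 replicate 2, and 2 with DESeq2, edgeR, median-ratio scaling or quantile normalization. The neighbours of these genes were lower as well. Of 25 consecutive tested genes at chr6:31847536-32806516 (GRCh37), from EHMT2 to TAP2, 24 were called lower, with a median of -1.59. This stretch was singled out after its values were seen. It includes genes with no part in antigen presentation, such as PBX2 (-1.64), a homeobox factor, and AGPAT1 (-2.13), a lipid enzyme. MHC class I genes were not shifted as a list, with 4 of 18 higher, 5 lower and a median of 0.04, although ERAP2, which trims peptides, was lower (-3.41).

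Survival and cell-cycle genes differed gene by gene. Of 17 BCL2-family genes, 8 were higher in HBL1 and 6 lower, with a median of -0.08, where 55.2% of all genes were called. BCL2A1, an antiapoptotic member induced by NF-kappaB, was at 27.9, 28.8 and 13.1 CPM against 0.0844, 0.0709 and 0.0836 CPM (6.94). The proapoptotic members BIK (5.58) and BMF (5.24) were higher too. BCL2 itself, which blocks apoptosis, was at 269, 292 and 292 CPM against 139, 152 and 120 CPM (1.06). Members that promote and members that block death were thus both higher in HBL1.

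Of 22 cell-cycle regulators, 7 were higher, 5 lower and 10 not called, near the 55.2% called over all genes. CDKN1A (p21), an inhibitor of cyclin-dependent kinases, was at 252, 266 and 305 CPM in HBL1 and 4.44, 6.2 and 4.78 CPM in Karpas422 (5.72). CDKN2A, a tumour suppressor at 9p21, was at 0.386, 0.487 and 0.493 CPM against 15.7, 18.9 and 13.5 CPM (-4.85). MTAP, its neighbour and a methionine salvage enzyme, was also lower (-3.22). In the 9p21 interval as listed, 3 of 7 tested genes were called lower, DMRTA1 was called higher and 3 were not called. Of 12 MYC network genes, 8 were lower and 1 higher (median -0.81), where 29.2% of all genes were lower and 26% higher. MYC was at 171, 166 and 135 CPM against 261, 276 and 249 CPM (-0.74). TXNIP, a glucose-sensitive arrestin, was at 61.3, 82.5 and 114 CPM against 389, 1070 and 540 CPM (-2.87). MYC was therefore only modestly lower, while CDKN1A and CDKN2A went in opposite directions.

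Proliferation genes did not separate the lines firmly. Of 22, 5 were higher, 1 lower and 16 not called. The higher calls were 10 without HBL1 replicate 3, the library with the low sum, and 2 without HBL1 replicate 1, without HBL1 replicate 2 or without Karpas422 replicate 2, and 3 without Karpas422 replicate 1. They were 9 with DESeq2, edgeR or median-ratio scaling and 8 with quantile normalization.

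**Figure D4:**
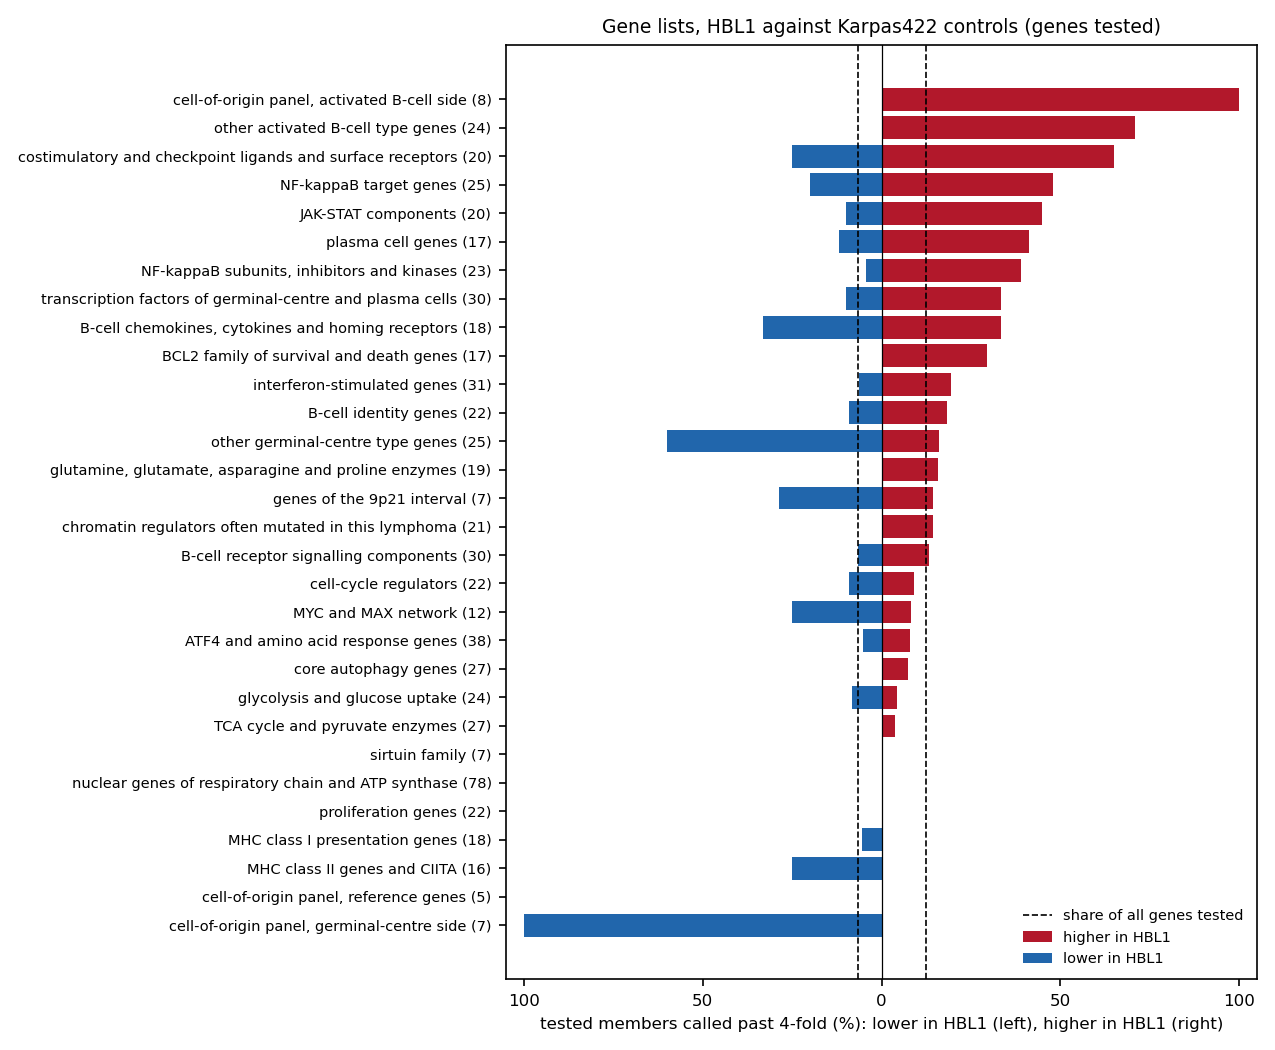
Share of the tested members of each gene list that were called past 4-fold, in percent, drawn to the right where higher in HBL1 (red) and to the left where lower (blue), with the number of tested genes in brackets. Dashed lines mark the shares over all genes tested, 12.4% higher and 6.47% lower; the cell-of-origin sides reach 100% in opposite directions, and the respiratory chain and proliferation lists have no 4-fold call.

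Metabolic genes mattered to the study because SIRT3 acts in mitochondria and feeds glutamine carbon into the TCA cycle, and because ATF4 induces amino acid synthesis and uptake. Between the lines, respiratory chain genes differed little in size. Of 78 nuclear genes of the respiratory chain and ATP synthase, 53 gave no call, 18 were lower in HBL1 and 7 higher, none past 4-fold, with a median of -0.19. The shares called lower (29.2% of all genes) and higher (26% of all genes) were thus below the background in both directions. The largest differences were in ATP5L (1.42), COX4I1 (1.12), NDUFA4 (-1.53) and NDUFA12 (-1.31). NDUFA4 was at 18.5, 16.8 and 13.6 CPM in HBL1 and 46, 43.2 and 51.7 CPM in Karpas422, the line that the study assigns to the OXPHOS class.

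Of 27 TCA cycle and pyruvate genes, 16 gave no call, 5 were higher and 6 lower, where 55.2% of all genes were called. PC, pyruvate carboxylase, which makes oxaloacetate from pyruvate, was at 10.8, 10.4 and 10.3 CPM in HBL1 and 0.197, 0.142 and 0.176 CPM in Karpas422 (5.29). It was the only gene of this list past 4-fold. Of 24 glycolysis genes, 11 were lower in HBL1 and 4 higher (median -0.52), and the higher calls were 2 without HBL1 replicate 1, without HBL1 replicate 2 or without Karpas422 replicate 2. HK2, which traps glucose in the cell, was at 53.5, 45.3 and 38.2 CPM against 256, 196 and 187 CPM (-2.22). SLC16A3, a lactate exporter, was higher in HBL1 at a low level (4.69).

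Genes of glutamine and proline synthesis stood out. GLUL (chr1:182347233-182361341 in GRCh37, minus strand), glutamine synthetase, was at 37.1, 38.4 and 35.3 CPM in HBL1 and 0, 0.0101 and 0.0279 CPM in Karpas422 (8.37; SE 0.14). PYCR1, which makes proline in mitochondria, was at 191, 195 and 202 CPM against 0.741, 1.29 and 0.139 CPM (8.23). Both transcripts were near 0 in Karpas422, and GLUL was at 8.89, 9.27 and 10.3 CPM in the OCI-Ly1 controls. Among the 19 genes of this list 6 were higher and 5 lower, so the list as a whole was near balance (median -0.06).

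ATF4 and its targets did not move in 1 direction. ATF4 was at 280, 289 and 342 CPM in HBL1 and 329, 372 and 278 CPM in Karpas422 (-0.10) and was not called. Of 38 ATF4 and amino acid response genes, 13 were higher, 14 lower and 11 not called, and the higher calls were 6 in a fit over all 27 libraries. ALDH1L2, a mitochondrial folate enzyme, was at 221, 248 and 330 CPM against 0.113, 0.132 and 0.149 CPM (10.15). PHGDH, the entry to serine synthesis, was at 276, 275 and 321 CPM against 38.2, 36.6 and 32 CPM (3.03). ASNS, asparagine synthetase, was lower, at 269, 291 and 247 CPM against 547, 418 and 587 CPM (-0.93). Other serine and folate genes of the list were divided, with PSAT1 (0.82) and SHMT2 (0.66) higher and PSPH (-0.97) and MTHFD2 (-0.97) lower. These 4 were named after their values were seen. STC2 (8.07), a secreted stress protein, was higher, and DDIT4 (-2.38), a brake on mTOR, and CBS (-4.63), of cysteine synthesis, were lower.

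**Figure D5:**
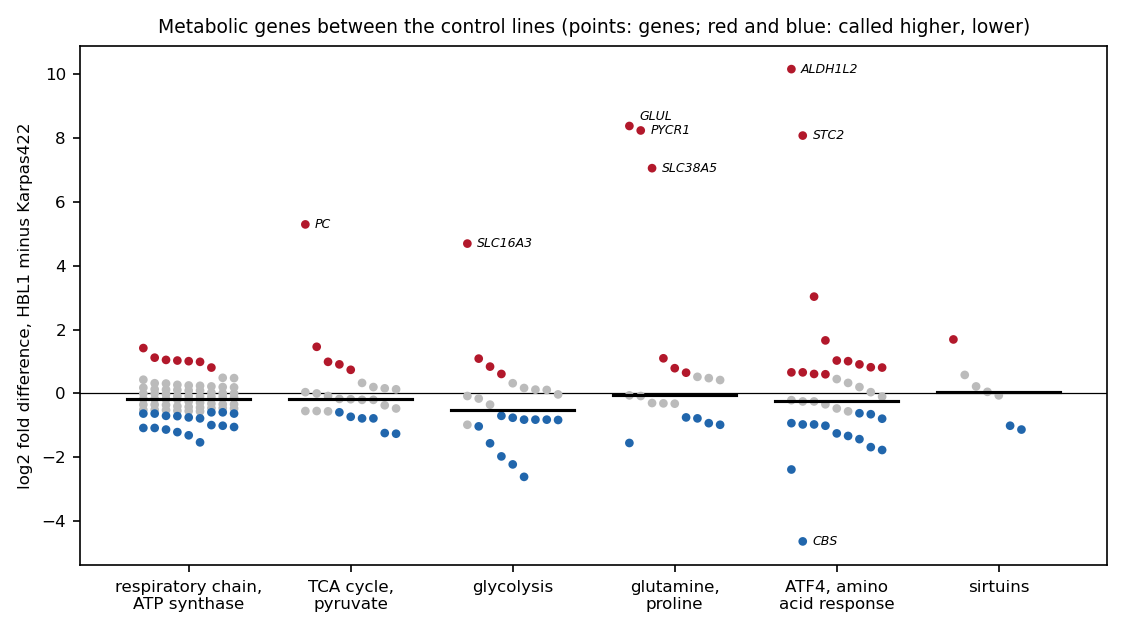
Log2 difference of HBL1 minus Karpas422 for each tested gene of 6 metabolic lists (points), red where called higher in HBL1, blue where called lower and grey where not called, with a line at each list's median. Medians lie between -0.52 and 0.05, the respiratory chain genes stay within 2 of it, and single genes such as ALDH1L2, GLUL, PYCR1 and PC lie far above.

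Some of the genes with the largest differences are better known from other tissues. The adhesion receptor CD44 (chr11:35160429-35253949 in GRCh37, plus strand) was at 628, 642 and 686 CPM in HBL1 and 0, 0.0202 and 0.065 CPM in Karpas422 (12.34). RUBCNL (11.93), an autophagy regulator, DOCK10 (11.37), an exchange factor of small GTPases, CDH2 (11.16), N-cadherin, and APP (10.93), the amyloid precursor, followed, with IRF4 and CCDC50 of the panel between RUBCNL and DOCK10. CDH2 is known from neural and mesenchymal cells rather than B cells, and it was at 266, 257 and 312 CPM in HBL1. In the other direction, DCN (decorin), a matrix proteoglycan of fibroblasts, was at 0.0914, 0.0943 and 0.0766 CPM in HBL1 and 401, 423 and 416 CPM in Karpas422 (-11.11). TNNI1, a muscle troponin, differed by -10.62 and SPX, a peptide hormone, by -11.66. ITGA4 (chr2:182321929-182403667 in GRCh37, plus strand), the alpha4 integrin of lymphocyte homing, was at 0, 0 and 0.0109 CPM against 150, 152 and 157 CPM (-10.53). NLGN4X, a neuronal adhesion protein, had no read in any HBL1 control and 102, 98 and 98.9 CPM in Karpas422, which is at least 8109-fold lower in HBL1 when 3 reads over the group are taken as the limit. Of the 14 stromal, epithelial and endothelial markers measured, 4 passed the filter. DCN was high in Karpas422, and in HBL1 COL1A2, a collagen chain, was at 12.6, 14.8 and 15.2 CPM and EPCAM, an epithelial adhesion protein, at 4.72, 5.94 and 7.27 CPM. Whether such transcripts came from the lymphoma cells themselves was not tested.

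A gene was counted as on in 1 line and off in the other when all 3 libraries were at least 5 CPM in the first and all 3 under 0.1 CPM in the second. There were 226 genes on in HBL1 alone (1.85%) and 73 on in Karpas422 alone (0.598%), IRF4, CCR7, CD44 and GLUL among the first and ITGA4 and NLGN4X among the second. Of these 299 genes, 138 kept the pattern in all 12 knockdown libraries of the lines.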

How the data were processed

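The study made TruSeq libraries, sequenced them as read pairs, aligned them to hg19 with STAR and counted RefSeq genes with Rsubread; the versions are not given in the sources used here. The deposited values are named FPKM, but every value in the 6 libraries is a whole multiple of the library's smallest step (tolerance 0.001), so the authors' values are CPM, with no division by length; what they divided by is not named. Reads were recovered from the steps. limma 3.58.1 (trend, empirical Bayes) was fitted in R 4.3.3 to log2(CPM + 0.1) of the 6 control libraries with no block, and separately to each hairpin's 6 libraries. Genes had at least 1 CPM in at least 3 control libraries. Calls needed a fold above 1.5 (or 4) and an adjusted p under 0.05. Reads were also simulated with 1 dispersion of 0.03 for every gene. Of 99 genes changed 2-fold 87.9% were recovered, and of 96 changed 4-fold 100%, with 12 false calls among 11761 unchanged genes. Far more genes differ between the lines, and the spread of these libraries was not simulated, so the rates may not hold here. The fold change on this scale understates low genes.

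Alternatives were edgeR 4.0.16 (quasi-likelihood) and DESeq2 1.42.0 on recovered reads, other scalings, pseudocounts and filters, all 27 libraries in 1 fit, a replicate block and each library left out. The 33 gene lists, the members and the rules were chosen with earlier results of these data known. Genes named were SIRT3, the panel, up to 4 with the largest fold per list and direction, and the 10 largest folds each way; genes at the centre of a list, such as RELA, ATF4 and CIITA, and the markers checked were added for their role. Promoters were matched by symbol, and gene positions come from GRCh37. A few measured genes are not reported here.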

Additional observations from a re-analysis of the deposited data

Results flagged for a closer look

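Only the 223 named genes were searched for a side that turned between the controls and a hairpin against SIRT3. For 3 of them, every HBL1 library with a hairpin stood on the opposite side of every Karpas422 library from its side in the controls. Over all genes tested, 16 had calls of opposite sign in the controls and with shSIRT3-1, and 26 with shSIRT3-2. The difference between the contrasts itself was not tested. TNF was lower in HBL1 controls (-2.57) and higher with shSIRT3-2, by 1.08 (limma, adjusted p = 0.16), where HBL1 read 34.4 to 44.6 CPM and Karpas422 5.89 to 34.3 CPM. SDHA, a subunit of respiratory complex II, was lower in HBL1 controls (-0.78) and higher with shSIRT3-1, by 0.36 (adjusted p = 0.061), at 37.6 to 45.2 against 26.8 to 36.1 CPM. With shSIRT3-2 SDHA was higher by 0.40 (limma, adjusted p = 0.021), at 45.1 to 49.2 against 29.3 to 40.3 CPM. ASNS was lower in HBL1 controls (-0.93) and higher with shSIRT3-2, by 0.42 (limma, adjusted p = 0.085), at 59.8 to 61.3 against 32.4 to 56.6 CPM.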

How the results depend on the processing

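The counts of called genes, at either fold and in each direction, stayed within 1.5 times of the values reported under every alternative run. SIRT3 crossed the 1.5-fold size and was called with DESeq2 (0.68), edgeR (0.66) and median-ratio scaling (0.67), and with 1 library left out it ranged from 0.50 to 0.63; its value lies at the threshold. Of the 223 named genes, SIRT4 reversed under quantile normalization (-0.11). Over the other settings, 2217 of 2230 values kept their direction and their side of the threshold, and 1311 of 1338 did with 1 library left out; PLK1, CCNB1, GPI and PGAM1 were among those lost. Whether replicate numbers pair the samples was not settled: same-numbered libraries deviated together at r = 0.29, 0 and 0.11. The value of 0.29 was the highest of all pairs across the lines, but HBL1 replicate 2 correlated best with Karpas422 replicate 1 (0.18). With the replicate block, 6769 genes were called (3198 higher, 3571 lower), SIRT3 was at 0.58, and 19 interferon-stimulated genes were called higher in place of 12; the block changed no call of a named gene. With a pseudocount of 1, 1018 genes were higher and 563 lower past 4-fold. At the depths here a gene at 0 in a line is not shown to be absent.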

Other observations

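Chromatin and autophagy genes were not described above. Of 21 tested chromatin regulators, 9 were lower in HBL1 and 5 higher, with a median of -0.43. Over all genes tested, 29.2% were lower and 26% higher. DNMT3B, a DNA methyltransferase, was at 8.65, 8.76 and 7.51 CPM in HBL1 and 0.638, 0.638 and 1.2 CPM in Karpas422 (3.24). TBL1XR1, a corepressor subunit, was at 388, 369 and 382 CPM against 62.7, 66.5 and 58.4 CPM (2.60). EZH2, the histone methyltransferase of the germinal centre, was at 67.8, 63.4 and 38.6 CPM against 91.4, 84.4 and 88.4 CPM (-0.68). Of 27 core autophagy genes, 17 gave no call, 6 were higher and 4 lower, where 55.2% of all genes were called. ULK2, a starting kinase, was at 8.82, 9.43 and 11.8 CPM against 0, 0.0304 and 0 CPM (6.52), and GABARAPL1, which coats the autophagosome, differed by 4.07.

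A run of neighbouring genes at chr12:122241915-122441833 (GRCh37) had no read in any HBL1 control. It was singled out after its values were seen. SETD1B, a histone methyltransferase, was at 7.4, 12.4 and 5.63 CPM in Karpas422, at least 691-fold higher than in HBL1 against a limit of 3 reads over the group. PSMD9, a proteasome assembly chaperone, was at 37.1, 29.4 and 37.1 CPM, at least 2814-fold higher. WDR66 was at 14.6, 12.2 and 10.5 CPM, at least 1014-fold higher. Over all 9 HBL1 libraries, knockdown included, the highest values of these 3 genes were 0.056, 0.0933 and 0.0746 CPM. On the side of lower coordinates, LINC01089 also had no read in the HBL1 controls (-4.96), and beyond it TMEM120B (-0.10) and ORAI1 (0.42) were not called. On the other side, BCL7A was at 4.09, 4.7 and 7.2 CPM in HBL1 and 120, 131 and 119 CPM in Karpas422 (-4.54), and beyond it MLXIP differed by -0.88.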
